A study of Mus musculus with 24 samples.

Results

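The comparison described here sets bone marrow-derived macrophages exposed to lipopolysaccharide (LPS) for 18 h against untreated macrophages of the same time point. It uses 8 of the 24 libraries of the series, taken by their labels: 4 libraries of LPS cells and 4 of untreated cells. The series asked how sphingomyelin d18:1/14:0 (S14), a membrane lipid, acts on gene expression in these macrophages, with LPS as the other stimulus and 3 h as the other time. All cells came from wild-type C57BL/6J mice, were grown from bone marrow in medium conditioned by L929 cells, which supplies the growth factor M-CSF, and were moved for the experiment to medium with serum and without that supplement. The LPS group received 100 ng/mL LPS for 18 h, and the untreated group received nothing for 18 h (named vehicle in the headings of the counts). The S14 group used further on received 30 µM S14 for 18 h. The mice's age and sex are not among the labels, which also do not say whether the 4 libraries of a group are 4 mice or 4 cultures. The p-values therefore set each difference against a spread between libraries, which may be technical. For the gene tests this spread was pooled over the 24 libraries of the series. Messenger RNA was measured by 3' end sequencing (QuantSeq), in which reads come from the ends of polyadenylated transcripts.

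LPS is a glycolipid of the outer membrane of Gram-negative bacteria. On macrophages the proteins CD14 and MD-2 pass it to Toll-like receptor 4, which signals through the adaptor MyD88 to NF-kB and the early cytokines, and through the adaptor TRIF to IRF3 and interferon beta. Secreted interferon beta then acts back on the cells through its receptor, and a complex that holds STAT2 and IRF9 binds the interferon-stimulated response element (ISRE) in the promoters of antiviral genes.

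The promoters of 5 genes are shown, 1 from each of 5 gene lists. Each belongs to the gene with the largest called change, in either direction, among list members with a RefSeq entry. The lists were interferon-stimulated antiviral genes, interferon-induced GTPases, cytokines, chemokines and mitosis genes. Promoters of 1 chromosome were left out of this choice. Each line holds the 250 bases before the RefSeq transcription start (build GRCm38.p6), written 5′ to 3′ on the gene's own strand, which is the minus strand for all 5. Ifi205 lies at chr1:174031756-174032005, Tgtp1 at chr11:48992247-48992496, Il1a at chr2:129309973-129310222, Cxcl9 at chr5:92328080-92328329 and Ccnb2 at chr9:70421555-70421804. Capitals mark a match to 1 of 4 motifs searched on both strands.
Ifi205: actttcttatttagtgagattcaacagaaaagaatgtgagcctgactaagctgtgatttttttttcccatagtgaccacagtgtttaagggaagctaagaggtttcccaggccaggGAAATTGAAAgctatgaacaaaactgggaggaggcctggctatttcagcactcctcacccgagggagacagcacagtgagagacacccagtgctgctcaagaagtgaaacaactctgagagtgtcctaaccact
Tgtp1: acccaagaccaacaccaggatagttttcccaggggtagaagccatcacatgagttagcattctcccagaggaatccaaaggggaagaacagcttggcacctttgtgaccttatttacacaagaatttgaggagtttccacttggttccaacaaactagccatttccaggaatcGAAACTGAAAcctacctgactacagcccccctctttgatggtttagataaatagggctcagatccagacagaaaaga
Il1a: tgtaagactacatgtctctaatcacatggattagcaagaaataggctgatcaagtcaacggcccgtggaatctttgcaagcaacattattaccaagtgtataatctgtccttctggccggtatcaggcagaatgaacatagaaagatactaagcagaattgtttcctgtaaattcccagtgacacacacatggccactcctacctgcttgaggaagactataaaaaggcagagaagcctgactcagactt
Cxcl9: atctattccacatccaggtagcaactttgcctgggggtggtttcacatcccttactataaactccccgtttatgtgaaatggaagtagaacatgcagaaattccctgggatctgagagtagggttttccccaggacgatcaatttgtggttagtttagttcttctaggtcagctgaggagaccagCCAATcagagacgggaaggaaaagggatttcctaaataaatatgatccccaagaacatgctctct
Ccnb2: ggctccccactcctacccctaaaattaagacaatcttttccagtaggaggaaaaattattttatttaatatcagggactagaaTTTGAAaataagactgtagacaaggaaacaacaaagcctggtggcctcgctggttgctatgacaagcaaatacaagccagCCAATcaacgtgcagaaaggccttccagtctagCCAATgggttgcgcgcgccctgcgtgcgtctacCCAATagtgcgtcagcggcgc
The motifs were the ISRE (GAAA, 2 letters of any kind, then GAAA), the NF-kB site, the CCAAT box (CCAAT, the letters bound by the factor NF-Y) and the cell cycle homology region (TTTGAA, CHR), and an ISRE and a CHR match can share the letters GAA. ISRE letters lay 134 to 125 bases before the start of Ifi205 and 77 to 68 bases before that of Tgtp1. The Cxcl9 window held 1 CCAAT box, 65 to 61 bases before the start. The Ccnb2 window held 3 CCAAT boxes, the nearest 21 to 17 bases before the start, and a CHR match 167 to 162 bases before it. The first bases after the start were found in a GENCODE transcript of the same gene for all printed genes but Ccnb2. Its start and these distances are thus less certain. None of the 4 motifs was found in the 250 bases of Il1a.

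Over whole lists the same letters were counted in windows from 250 bases before to 50 bases after each start, as a description without a test. An ISRE match was in 3.44% of the 32851 windows of all promoters and in 3.48% of the 11230 windows of the genes tested here. It was in 47.9% of the 48 windows found for 38 of the 47 interferon-stimulated genes and in 81.8% of the 11 windows found for 10 of the 15 GTPases. A CCAAT box was in 37.9% of the windows of the tested genes and in 84.0% of the 25 windows found for 24 of the 30 mitosis genes. CHR letters were in 12.2% of the windows of the tested genes and in 80.0% of those of the mitosis genes. Among the 100 genes that rose most, with promoters for 80, an ISRE match was in 8.82% of windows and an NF-kB site in 10.8%, against 10.4% of the windows of all tested genes. Among the 100 that fell most, with promoters for 76, 53.5% of windows held a CCAAT box and 35.6% CHR letters.

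Libraries held 4626972 to 5130320 reads in genes in the LPS group and 4729750 to 6350251 in the untreated group. LPS libraries had a lower share of mitochondrial reads (0.651% ± 0.136 against 1.55% ± 0.0865, SD, n = 4) and of reads in ribosomal RNA entries (0.189% ± 0.0478 against 0.357% ± 0.0429), and their 100 most abundant genes took more of the reads (37.7% ± 0.226 against 30.6% ± 0.231). Each of these gave p = 0.0286 in an exact two-sided permutation test, the smallest that 4 against 4 allows, and 0.0571 after adjustment over 6 such measures. The part of these shares in the gene results was not tested. Untreated replicate 4 stood apart from its group: the SD of its log2 deviations from the group mean was 0.518, against 0.327 to 0.345 in the other untreated libraries, and added spike-in RNA made up 0.0134% of its reads, the lowest share of the 8. The comparison with untreated cells was therefore also computed without it. For the difference between times, only counts of called genes are given without it. Of the 14 macrophage markers, 14 passed the filter on low counts and 12 changed, 5 higher and 7 lower (1 and 7 under spike-in scaling, 3 and 3 without untreated replicate 4 under that scaling): Adgre1, which encodes F4/80, was at 1689 ± 460.1 CPM in untreated and 1997 ± 457 CPM in LPS cells and did not pass the test (adjusted p = 0.166), while Lyz2 (lysozyme) fell from 28532 ± 5846 to 10787 ± 2968 CPM. The summed level of these markers was 36602 to 50628 CPM in untreated and 20559 to 29393 CPM in LPS libraries. Lyz2 was the largest part of the untreated sum, so the sum mainly follows this gene. The median log2 fold change of the 14 markers was -0.13 (-0.78 under spike-in scaling, and -0.13 without untreated replicate 4 under that scaling).

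At 18 h LPS cells differed from untreated cells in many gene groups. Secreted mediators, nitric oxide synthase, interferon-stimulated genes, glycolysis and antioxidant genes were higher, and genes of mitosis, DNA replication, sterol synthesis and MHC class II were lower. Of 11717 genes tested, 6517 (55.6%) differed at an adjusted p under 0.05 in edgeR's quasi-likelihood test. Of these, 3200 (27.3%) were higher and 3317 (28.3%) lower with LPS. Counts of list members against untreated cells at 18 h are to be read against these 2 shares. By 2-fold or more, 1243 genes (10.6%) were higher and 1553 (13.3%) lower. All 4 LPS libraries lay above all 4 untreated ones for 2629 genes (22.4%) and below them for 2539 (21.7%). Without untreated replicate 4, 6447 genes (55.0%) were called, 3186 higher (27.2%) and 3261 lower (27.8%), and 5976 genes had the same direction of call with and without it. In these bulk libraries, fewer cells of a type and less RNA per cell cannot be told apart.

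The split into higher and lower genes depended on the scaling. Under scaling to the added spike-in RNAs, 5221 genes were called (44.6%), 695 higher (5.93%) and 4526 lower (38.6%), and when untreated replicate 4 was also left out 3985 were called (34.0%), 1431 higher (12.2%) and 2554 lower (21.8%). The counts of list members under that scaling are to be read against these shares, and "without replicate 4" in parentheses after such a count gives it with that untreated library also left out. Higher genes made up 49.1% of the calls with the standard scaling to library composition (TMM), 13.3% when libraries were scaled to the spike-in RNAs, and 35.9% when untreated replicate 4 was also left out. The median log2 fold change of all tested genes was -0.04, -0.68 and -0.19 under these 3 choices. Changes below are relative to the first. The spike-in share of reads was 0.0353% ± 0.00938 in LPS and 0.0317% ± 0.0127 in untreated libraries (SD, n = 4, exact two-sided permutation p = 0.571, adjusted 0.686), and without untreated replicate 4 the sign of that difference changed (p = 0.914).

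**Figure D1:**
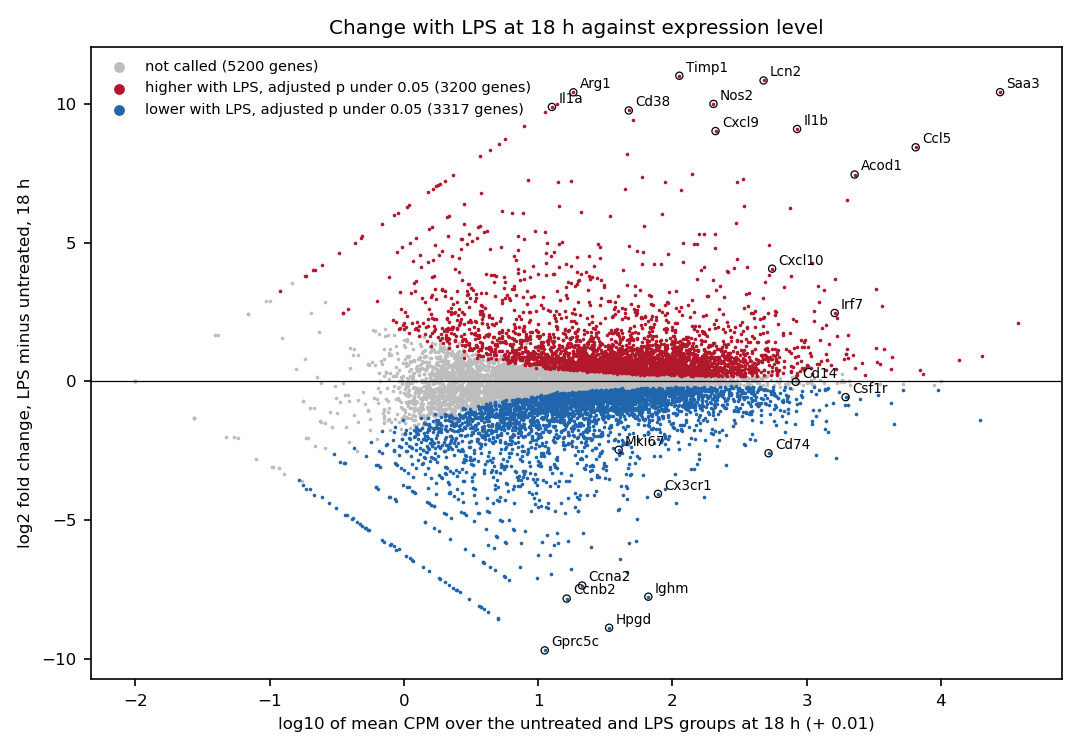
Log2 fold change of LPS over untreated cells at 18 h (vertical axis) against the log10 mean CPM of both groups (horizontal axis) for the 11717 genes tested, coloured by call. Saa3 stands at the highest level among the strongly raised genes labelled, while Ccnb2, Hpgd and Gprc5c lie at the bottom.

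The largest rises at 10 CPM (counts scaled to a common library size) or more included acute-phase genes. Saa3, an acute-phase serum amyloid A gene made by macrophages (chr7:46711998-46715700), was at 49, 50.3, 29.4 and 33.1 CPM in the 4 untreated and 55689, 47634, 60242 and 57161 CPM in the 4 LPS libraries. The groups did not overlap (log2 fold change 10.42, SE 0.23, adjusted p = 1.13e-19). Lcn2, whose product lipocalin 2 withholds iron from bacteria, went from 0.581, 0, 0 and 1.58 CPM to 1099.9, 887, 968 and 868 CPM, again without overlap (log2 fold change 10.84, SE 0.44, adjusted p = 2.74e-14). Timp1, an inhibitor of matrix metalloproteinases, had 2 reads in all untreated libraries and 3875 in the LPS libraries, a ratio of 2729 (95% counting interval 755 to 22545, which covers counting error only). Cd38, an enzyme that consumes NAD, had 2 against 1654 reads (ratio 1165, 322 to 9628), and Tarm1, an activating receptor of myeloid cells, had 3 against 1750 (ratio 822, 281 to 3989). With no read in untreated cells, Saa1 was at least 127-fold higher and the transcript U90926 at least 183-fold higher. Saa1 shares much of its sequence with Saa2, so its value is uncertain.

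The largest falls included genes of cell division. Hpgd, the enzyme that inactivates prostaglandins (chr8:56294585-56321043), was at 63.7, 52.6, 65 and 88.6 CPM in untreated and 0.234, 0, 0 and 0.218 CPM in LPS libraries, or 1633 against 2 reads (ratio 580, 160 to 4790). Ccnb2, the mitotic cyclin B2 (chr9:70407692-70421547), was at 34.3, 29.2, 33.7 and 32.9 CPM and 0, 0, 0.448 and 0 CPM, or 791 against 2 reads (ratio 281, 77.5 to 2322). Both genes were read in all 4 untreated libraries and nearly unread in the LPS libraries. Gprc5c, an orphan G protein-coupled receptor, had 537 reads in untreated cells and none in LPS cells, and was at least 127-fold lower. The mitotic kinesin Kif14 was at least 57.3-fold lower and the acyl-CoA thioesterase Acot1, which has near-identical relatives, at least 58.2-fold lower. The 10 largest falls also took in Pimreg (480 against 2 reads), the kinetochore gene Ska1 (279 against 1) and the nuclease gene Ankle1 (300 against 1). Ccna2 (cyclin A2) and Ighm (the heavy chain of immunoglobulin M) fell by 7.36 and 7.77 on the log2 scale.

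**Figure D2:**
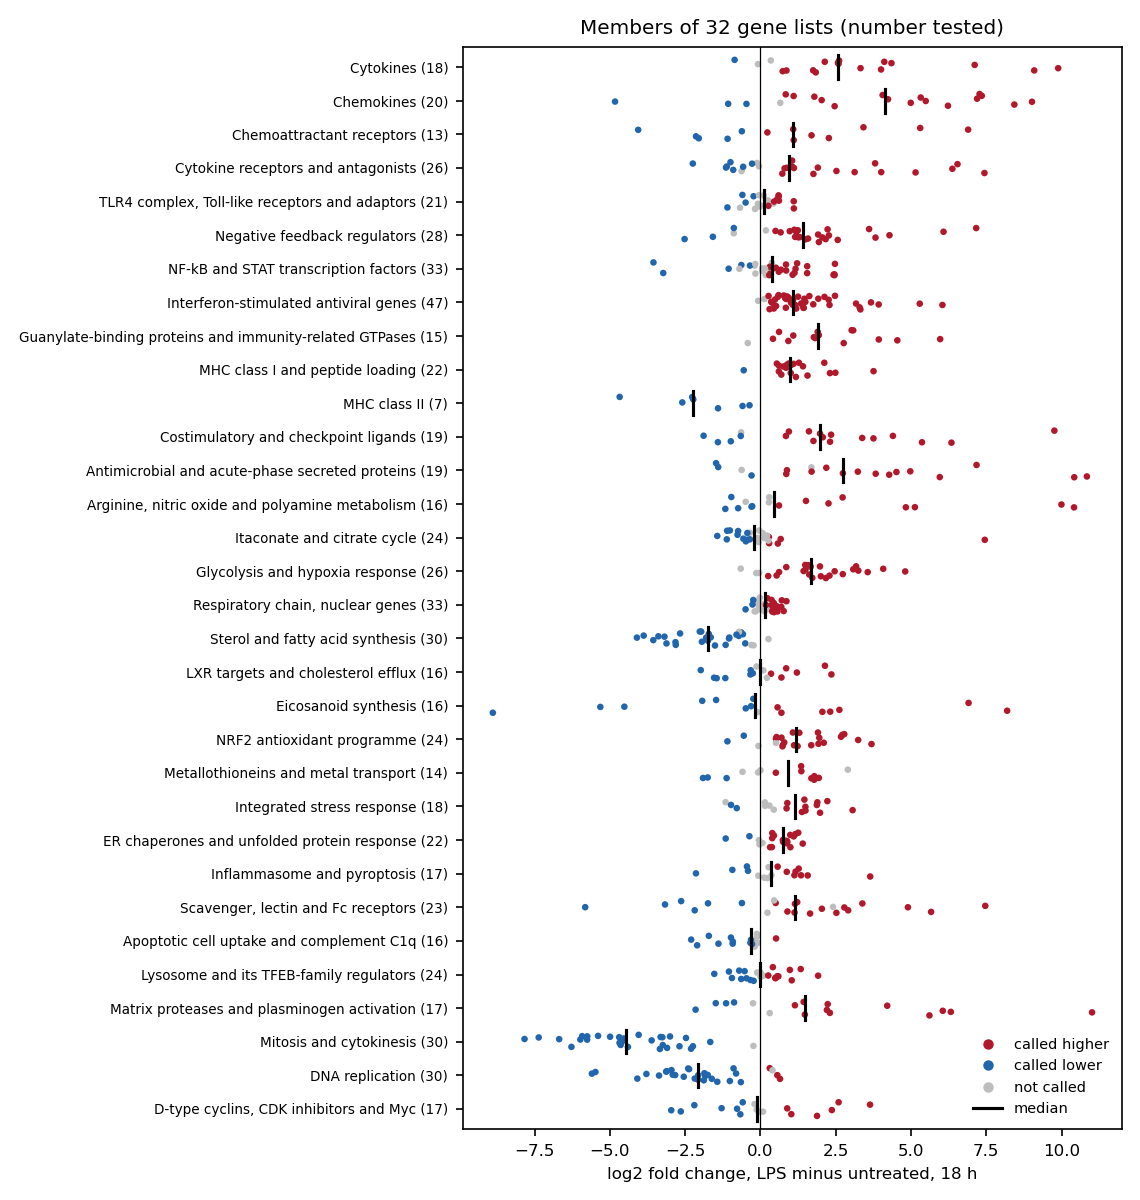
Log2 fold change of each tested member (points) of 32 gene lists, with the list median (bar) and the number of members tested in parentheses. The interferon-stimulated genes, GTPases and glycolysis genes lie almost wholly on the right, and the mitosis, sterol and MHC class II genes on the left.

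Among the ligands, inflammatory cytokines were higher. Of 18 cytokine genes tested, 15 rose and Tgfb1 (transforming growth factor beta 1) fell, with a median log2 fold change of 2.58, or 2.36 with the 3 genes unread in untreated cells set at their bounds, and 12 rose under spike-in scaling (13 without replicate 4). The other 5 members of this list (Il12a, Il23a, Csf2, Csf3 and Lif) had too few reads in all groups to be tested. A gene read in a single group passed the filter through that group, so such counts describe the list and are no test of it. Il1b, which encodes interleukin 1 beta (chr2:129364570-129371139), was at 1.94, 5.06, 1.54 and 3.85 CPM in untreated and 1339, 684, 2094 and 2668 CPM in LPS libraries (log2 fold change 9.09, SE 0.47, adjusted p = 1.88e-12). The LPS libraries all lay far above the untreated ones, although LPS replicate 2 held the lowest of their values. Il1a, encoding interleukin 1 alpha, had no read in untreated cells and 18.3, 22.9, 23.9 and 36.2 CPM in LPS libraries, at least 207.6-fold higher. Tnf, encoding tumour necrosis factor, was at 15.1, 14.7, 16.5 and 12.8 CPM and 76.4, 90.6, 104 and 87.1 CPM (log2 fold change 2.59, SE 0.11, adjusted p = 3.41e-23), a rise smaller than those of the interleukin 1 genes but with little spread.

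Few reads came from the genes of interleukins 6, 12 and 10. Il6 had no read in untreated libraries and 0.703, 4.78, 3.13 and 6.11 CPM in LPS libraries, at least 30.1-fold higher. Il12b, the p40 subunit shared by interleukins 12 and 23, had 2 untreated and 11 LPS reads (ratio 7.75, 1.69 to 71.9), and its call (adjusted p = 0.0498) was lost without untreated replicate 4 (adjusted p = 0.0983) and without LPS replicate 2 (0.456). Il10, encoding the anti-inflammatory interleukin 10, was at 7.74, 3.16, 9.09 and 11 CPM and 8.67, 9.31, 10.7 and 10.5 CPM, and the groups overlapped (log2 fold change 0.34, SE 0.24, adjusted p = 0.236). Inhba, the activin A subunit, rose from 1.53 ± 0.703 to 27.3 ± 5.96 CPM, and Ifnb1, the interferon beta gene, had 2 against 38 reads (ratio 26.8, 6.92 to 229).

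Chemokines, which draw leukocytes to a site, showed the highest median of the ligand lists. Of 20 tested, 16 rose and 3 fell (Cx3cl1, Ccl6 and Ccl9), with a median log2 fold change of 4.15, and 13 rose under spike-in scaling (15 without replicate 4). Cxcl9, whose promoter is printed above, encodes a ligand of CXCR3, a chemokine receptor found on T cells. It was at 1.16, 0.79, 0.979 and 0.175 CPM in untreated and 456, 627, 333 and 259 CPM in LPS libraries (log2 fold change 9.02, SE 0.40, adjusted p = 1.30e-13). LPS replicate 2 was here the highest of its group, the reverse of its place for Il1b. Ccl5 (chr11:83525778-83530518), which attracts T cells and monocytes, was at 48.6, 37.5, 31.9 and 32.7 CPM and 13539, 13917, 12934 and 11394 CPM (log2 fold change 8.43, SE 0.12, adjusted p = 1.01e-39). The CXCR3 ligand Cxcl10 was at 58.8, 41.1, 50.5 and 102 CPM and 950.0, 1091, 1077 and 1059.7 CPM (log2 fold change 4.06, SE 0.20, adjusted p = 3.96e-13), and untreated replicate 4 held the highest untreated value. The monocyte attractants Ccl2 and Ccl7 rose from 19.6 ± 5.37 to 1482 ± 217 CPM and from 4.27 ± 0.591 to 666 ± 62.3 CPM. Neutrophil attractants were also higher, Cxcl2 by 4.24 (SE 0.19) and Cxcl1 by 2.03 (SE 0.46) on the log2 scale.

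Receptors for these ligands moved in both directions. Of 13 chemoattractant receptors tested, 8 rose and 5 fell, and 5 rose under spike-in scaling (7 without replicate 4). The formyl peptide receptors, which sense bacterial peptides, were among the risen: Fpr1 was at 3.29, 2.85, 1.54 and 0 CPM and 167, 138, 280.2 and 328 CPM (log2 fold change 6.90, SE 0.37, adjusted p = 1.17e-12), and Fpr2 rose from 10.3 ± 2.33 to 405 ± 76.6 CPM. Cx3cr1, the fractalkine receptor of patrolling monocytes and tissue macrophages, was at 105, 86.3, 118 and 281 CPM and 10.8, 3.27, 9.85 and 10.9 CPM (log2 fold change -4.06, SE 0.39, adjusted p = 2.47e-08). Untreated replicate 4 stood well above the other untreated libraries, and without it the log2 fold change was -3.55. Ccr2 and Cxcr4, which guide monocytes and retain cells in marrow, fell by 2.14 and 2.05 on the log2 scale.

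Of 26 cytokine receptors and antagonists tested, 16 rose and 7 fell, and 10 rose under spike-in scaling (15 without replicate 4). Il1rn, the interleukin 1 receptor antagonist, was at 50.7, 45.1, 47.3 and 26.6 CPM in untreated and 4240.2, 5449.9, 3431 and 2732 CPM in LPS libraries (log2 fold change 6.54, SE 0.22, adjusted p = 7.13e-16). Il18bp, a decoy for interleukin 18, rose from 19.3 ± 3.98 to 309.6 ± 70.5 CPM, and Il15ra, which presents interleukin 15, rose from 3.15 ± 0.984 to 44.5 ± 3.75 CPM. The fallen genes included the transforming growth factor beta receptors Tgfbr1 and Tgfbr2 (by 2.25 and 1.00 on the log2 scale) and the interleukin 6 receptor chains Il6ra and Il6st (by 1.12 and 1.14). Csf1r, the M-CSF receptor on which these cells depend, was at 2698, 2387, 2306 and 1947 CPM and 1475, 1241, 1856 and 1701 CPM, with all LPS libraries below all untreated ones (log2 fold change -0.57, SE 0.09, adjusted p = 4.60e-07).

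Genes of the LPS sensing machinery changed in both directions, by at most 1.11 on the log2 scale. Of 21 Toll-like receptors, co-receptors and adaptors tested, 8 rose and 4 fell, against 27.3% and 28.3% of all genes, and the median of 0.11 became -0.52 with 0 rising and 6 falling under spike-in scaling (0.06, 2 and 3 without replicate 4). Tlr4, the LPS receptor, was at 90.4, 90.1, 91.8 and 96.8 CPM and 56.4, 57.1, 64.2 and 65.5 CPM (log2 fold change -0.60, SE 0.10, adjusted p = 3.44e-06), with no overlap. Cd14, its co-receptor, was at 764, 787, 764 and 1027 CPM and 732, 526, 879 and 1152 CPM (log2 fold change -0.02, SE 0.17, adjusted p = 0.923), and the groups overlapped. The sign of the Cd14 difference changed when untreated replicate 4 or LPS replicate 1 or 2 was left out. Tlr2, the lipopeptide receptor, fell from 77.1 ± 6.33 to 35.7 ± 14.7 CPM, while Tlr1 and Tlr3 rose from 57.2 ± 7.33 to 123 ± 3.39 CPM and from 20.1 ± 4.54 to 43.1 ± 8.7 CPM. Ly96, which encodes MD-2, was at 92.5 ± 28.6 CPM in untreated and 92.9 ± 10.0 CPM in LPS cells (adjusted p = 0.963, and 0.0404 without untreated replicate 4).

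Inhibitors of the pathway were higher. Of 28 negative feedback regulators tested, 23 rose and 3 fell (Sigirr, Zfp36l1 and Zfp36l2), with a median log2 fold change of 1.40, and 14 rose under spike-in scaling (22 without replicate 4). Socs3, which blocks signalling by the interleukin 6 receptor family, was at 4.84, 4.74, 1.54 and 5.95 CPM and 546, 595, 566 and 682 CPM (log2 fold change 7.16, SE 0.25, adjusted p = 3.21e-16). Dusp1, a phosphatase of the stress kinases, was at 8.52, 12.6, 13.3 and 11.9 CPM and 242, 287, 198 and 188 CPM (log2 fold change 4.29, SE 0.15, adjusted p = 2.90e-24). In both cases the groups were far apart. Socs1 rose from 2.95 ± 1.7 to 36.7 ± 3.51 CPM, the NF-kB inhibitor Nfkbia rose from 417 ± 19.9 to 1869 ± 58.6 CPM, and Tnfaip3, which encodes the ubiquitin editor A20, rose from 10.7 ± 3.87 to 40.2 ± 2.87 CPM. Irak3, the kinase-inactive IRAK-M, rose by 2.06 (SE 0.16) on the log2 scale.

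Of 33 transcription factors of the NF-kB, STAT, IRF and AP-1 families, 19 rose and 5 fell with a median of 0.38. Under spike-in scaling 6 rose and 8 fell and the median was -0.38 (11, 4 and 0.33 without replicate 4). Irf7, the interferon-induced factor that amplifies interferon production, was at 541, 481, 366 and 605 CPM in untreated and 2839, 3025, 2573 and 2517 CPM in LPS libraries (log2 fold change 2.46, SE 0.11, adjusted p = 8.44e-19). Batf2 rose from 5.53 ± 1.62 to 30.5 ± 2.68 CPM and Cebpb, a factor of acute-phase genes, rose from 119 ± 22 to 654 ± 65.7 CPM. Egr2 and Irf4, both linked to alternative macrophage activation, fell by 3.55 and 3.23 on the log2 scale. The NF-kB subunits were split: Nfkb2, Relb and Rela rose by 1.55 (SE 0.09), 0.85 (SE 0.12) and 0.51 (SE 0.08), Rel fell by 0.35, and Nfkb1 at -0.19 (SE 0.14) did not pass the test (adjusted p = 0.249).

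Interferon-stimulated antiviral genes were higher as a group, by moderate amounts. Of 47 tested, 45 rose and none fell, with a median log2 fold change of 1.09 (1.07 without untreated replicate 4), and 17 rose under spike-in scaling (34 without replicate 4). Ifi205, a nucleic acid sensor of the AIM2-like family, was at 3.68, 3.48, 1.68 and 1.23 CPM in untreated and 178, 195, 155 and 131 CPM in LPS libraries (log2 fold change 6.04, SE 0.18, adjusted p = 1.36e-27). Slfn4, a Schlafen gene of myeloid cells, was at 7.55, 13, 5.73 and 7.7 CPM and 324, 434, 307 and 267 CPM (log2 fold change 5.29, SE 0.24, adjusted p = 4.36e-15), and Oasl1, an oligoadenylate synthetase-like protein, rose from 32.1 ± 7.0 to 485 ± 95.4 CPM. Rsad2 (viperin), Mx1 and Isg15 rose by 3.32 (SE 0.16), 3.29 (SE 0.18) and 2.27 (SE 0.19) on the log2 scale. At the lower end, Eif2ak2, the kinase PKR, rose by 0.36 (SE 0.13), and Samd9l and Ifi203 did not pass the test (adjusted p = 0.434 and 0.175). Ifi205, Ifit3 and Oas1a have close relatives that can share reads.

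Interferon-induced GTPases, which attack the vacuoles of intracellular pathogens, gave a higher median of 1.90, with 14 of 15 tested rising and none falling, and 10 rose under spike-in scaling (12 without replicate 4). Gbp2 was at 67.4, 46.3, 52.4 and 45 CPM and 444, 602, 362 and 311 CPM (log2 fold change 3.03, SE 0.16, adjusted p = 3.80e-14). LPS replicate 2 was the highest, as for Cxcl9, and the groups did not overlap. Iigp1 rose from 38.4 ± 12.1 to 323 ± 33.1 CPM and Gbp4 from 2.3 ± 1.27 to 36.5 ± 8.25 CPM. Tgtp1, whose promoter is printed above, had 2 reads in untreated and 44 in LPS cells (ratio 31.0, 8.08 to 264), and it cannot be separated with certainty from its near-identical copy Tgtp2, which rose by 1.94 (SE 0.19).

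Antigen presentation genes were split by class. Of 22 MHC class I and peptide loading genes, 21 rose and Erap1, an aminopeptidase that trims peptides, fell, with a median of 0.98, and 5 rose under spike-in scaling (18 without replicate 4). H2-T22 and H2-Q7, non-classical class I genes, rose from 163 ± 44.3 to 807 ± 166 CPM and from 25.3 ± 6.51 to 142 ± 25.2 CPM, and the transporter Tap1 rose from 207 ± 13.1 to 549 ± 19.8 CPM. H2-Q6 and H2-Q7 are close copies whose reads can be split. All 7 MHC class II genes tested fell, with a median of -2.23 (-2.12 without untreated replicate 4). Ciita, the master regulator of this class, was at 54, 28.5, 32.3 and 36.6 CPM in untreated and 0.703, 2.52, 1.34 and 1.31 CPM in LPS libraries (log2 fold change -4.68, SE 0.32, adjusted p = 1.62e-16). Cd74, the invariant chain, was at 727, 699, 724 and 1423 CPM and 149, 159, 147 and 136 CPM (log2 fold change -2.60, SE 0.18, adjusted p = 4.15e-11), and untreated replicate 4 was the highest untreated library by a wide margin. Without it the log2 fold change of Cd74 was -2.28.

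Of 19 costimulatory and checkpoint ligands tested, 14 rose and 4 fell, with a median of 1.98, and 12 rose under spike-in scaling (14 without replicate 4). Cd274, which encodes the checkpoint ligand PD-L1, was at 34.1, 22.6, 33.3 and 19.4 CPM and 642, 729.8, 482 and 458 CPM (log2 fold change 4.40, SE 0.19, adjusted p = 1.61e-15), with no overlap. Cd40 and Cd86, which activate T cells, rose from 24 ± 3.73 to 101 ± 13.5 CPM and from 11.9 ± 1.38 to 60.5 ± 8.58 CPM, while Cd80 at -0.64 (SE 0.36) did not pass the test (adjusted p = 0.124). Cd83, Havcr2, Icosl and Vsir fell.

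Secreted antimicrobial and acute-phase proteins were mostly higher, with 14 of 19 rising, 3 falling and a median of 2.74 (2.72 with Ptx3, unread in untreated cells, at its bound). Under spike-in scaling 11 rose (14 without replicate 4). Besides Saa3 and Lcn2, Hp, the haemoglobin scavenger haptoglobin, was at 0.774, 1.58, 0.979 and 1.4 CPM and 179.6, 130.1, 181 and 213 CPM (log2 fold change 7.18, SE 0.24, adjusted p = 1.38e-25). The complement genes Cfb and C3 rose from 1.09 ± 1.07 to 68 ± 9.74 CPM and from 302 ± 18.8 to 1375 ± 36.7 CPM. The fallen genes were the lysozymes Lyz1 and Lyz2 and the pore-forming Mpeg1.

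Arginine metabolism was changed at both of its competing enzymes. Nos2, the inducible nitric oxide synthase (chr11:78920787-78960254), was at 0.774, 0, 0.699 and 0 CPM in untreated and 438, 442, 362 and 376 CPM in LPS libraries (log2 fold change 10.00, SE 0.27, adjusted p = 2.81e-22). Arg1, the arginase that uses the same substrate (chr10:24915221-24927484), had no read in untreated cells and 34, 26.4, 34.2 and 51.8 CPM in LPS libraries, at least 300.5-fold higher. The mitochondrial arginase Arg2 rose from 0.434 ± 0.4 to 15.4 ± 4.04 CPM. Ass1, which rebuilds arginine from citrulline, rose from 14.7 ± 9.72 to 96.7 ± 7.88 CPM, and the arginine carrier Slc7a2 rose from 1.95 ± 1.22 to 55.6 ± 13.3 CPM. Of the 16 genes of the list 8 rose and 5 fell, among the latter the polyamine enzymes Srm and Sms. The list's median of 0.45 became -0.19 under spike-in scaling (0.33 without replicate 4), where 7 rose and 6 fell (7 and 2 without replicate 4).

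Acod1 and glycolysis genes rose, while most genes that changed in a list of itaconate and citrate cycle genes fell. Acod1, which makes the antimicrobial metabolite itaconate, was at 35.6, 28, 22.2 and 18.4 CPM in untreated and 4339.7, 3950.0, 4759 and 5076 CPM in LPS libraries (log2 fold change 7.45, SE 0.15, adjusted p = 1.29e-26). Of its list of 24 itaconate and citrate cycle genes 5 rose and 11 fell (7 and 11 without untreated replicate 4, and 1 and 13 under spike-in scaling, or 2 and 6 with both), with a median of -0.22. Fumarase Fh1, the cytosolic isocitrate dehydrogenase Idh1 and the cytosolic malate dehydrogenase Mdh1 fell by 1.12, 1.11 and 1.02 on the log2 scale. The list is thus not limited to enzymes of the mitochondrial cycle. Of 26 glycolysis and hypoxia response genes, 23 rose and none fell, with a median of 1.69, and 18 rose under spike-in scaling (20 without replicate 4). Slc16a3, the lactate exporter MCT4, was at 35.2, 36.4, 33.1 and 24.7 CPM and 599, 489, 568 and 531 CPM (log2 fold change 4.08, SE 0.11, adjusted p = 2.88e-30). Pfkfb3, which drives phosphofructokinase, was at 19.9, 12.2, 15 and 10.7 CPM and 389, 342, 431 and 447 CPM (log2 fold change 4.81, SE 0.14, adjusted p = 3.61e-26), and both genes were free of overlap. The hypoxia factor Hif1a rose from 63 ± 10.4 to 253 ± 35.3 CPM, the glucose carrier Slc2a1 from 20.3 ± 3.76 to 192 ± 31 CPM and the oxygen sensor Egln3 from 0.846 ± 0.327 to 10.4 ± 1.46 CPM. Gapdh, Pgk1 and Eno1 have processed copies, and their counts are uncertain.

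The nuclear genes of the respiratory chain changed by small amounts. Of 33 tested, 14 rose and 3 fell (15 and 0 without untreated replicate 4). The share called was 51.5%, against 55.6% of all genes tested. The median of 0.16 became -0.44 with 0 rising and 6 falling under spike-in scaling (-0.06, 2 and 0 without replicate 4). Cytochrome c, Cycs, rose by 0.86 (SE 0.13), and Ndufs4 and Cox5a rose by 0.77 (SE 0.10) and 0.71 (SE 0.07). None of the 3 passed the test under spike-in scaling. Of 8 transcripts of the mitochondrial genome tested, 6 fell and 1 rose (6 and 0 without untreated replicate 4).

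Sterol and fatty acid synthesis was lower almost throughout. Of 30 genes, 26 fell and none rose, with a median of -1.73 (25 fell and 1 rose without untreated replicate 4). Cyp51, which demethylates lanosterol, was at 85.5, 75.4, 96.6 and 94.9 CPM in untreated and 9.84, 7.05, 8.5 and 8.08 CPM in LPS libraries (log2 fold change -3.39, SE 0.19, adjusted p = 4.34e-16). The desaturase Fads2 was at 45.5, 51.1, 68.6 and 65.3 CPM and 5.86, 8.05, 5.37 and 6.11 CPM (log2 fold change -3.19, SE 0.16, adjusted p = 5.63e-21). The untreated and LPS values of both genes were well apart. The regulator Srebf2 fell from 152 ± 60.4 to 48.4 ± 7.66 CPM.

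Cholesterol efflux and eicosanoid genes changed in both directions. Of 16 LXR targets and efflux genes, 6 rose and 7 fell with a median of -0.02. Under spike-in scaling 2 rose and 8 fell with a median of -0.75 (4, 4 and -0.08 without replicate 4). Nr1h3, which encodes the receptor LXR alpha, rose from 23.1 ± 3.43 to 118 ± 11.3 CPM, while Scarb1, Lpl and Apoe fell by 1.98, 1.54 and 1.45 on the log2 scale. Of 16 eicosanoid genes, 7 rose and 8 fell with a median of -0.17. Under spike-in scaling 5 rose and 9 fell with a median of -0.89 (5, 5 and -0.24 without replicate 4). The inducible prostaglandin E2 route was higher: Ptgs2, cyclooxygenase 2, was at 0.774, 0.79, 0.419 and 0.875 CPM and 78.7, 93.1, 81.7 and 95.9 CPM (log2 fold change 6.91, SE 0.24, adjusted p = 3.51e-22), and Ptges, the terminal synthase, at 0, 0.474, 0.559 and 0 CPM and 84.3, 69.5, 90.6 and 122 CPM (log2 fold change 8.19, SE 0.37, adjusted p = 7.45e-20). The constitutive cyclooxygenase Ptgs1 fell from 19.2 ± 5.29 to 0.832 ± 0.807 CPM. Alox5, the leukotriene enzyme, had 193 untreated and 3 LPS reads (ratio 45.7, 15.4 to 223).

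Antioxidant genes under NRF2 were higher in 20 of 24 cases, with 2 lower and a median of 1.17, and 10 rose under spike-in scaling (14 without replicate 4). Hmox1, the haem-degrading enzyme, was at 183, 223, 202 and 323 CPM in untreated and 2967, 2896, 2756 and 3375 CPM in LPS libraries (log2 fold change 3.69, SE 0.15, adjusted p = 6.02e-17). The cystine carrier Slc7a11 rose from 2.63 ± 0.809 to 25 ± 9.04 CPM, the peroxiredoxin Prdx1 from 969 ± 224 to 6378 ± 936 CPM and the ferritin chain Fth1 from 14147 ± 2477 to 60761 ± 627 CPM. Nqo1, often used to report on NRF2, was at 4.23 ± 1.79 CPM in untreated and 4.06 ± 0.266 CPM in LPS cells and did not pass the test (adjusted p = 0.883), and the gene of NRF2 itself, Nfe2l2, fell by 0.55 on the log2 scale. Among 14 metal genes, 7 rose and 3 fell (5 and 4 under spike-in scaling, or 6 and 3 if untreated replicate 4 was also left out): the phagosomal metal exporter Slc11a1 and the copper carrier Slc31a1 rose from 149 ± 13.1 to 571 ± 30.5 CPM and from 110.0 ± 7.5 to 379.6 ± 21.8 CPM, and the transferrin receptor Tfrc fell from 75 ± 6.86 to 19.8 ± 10.9 CPM.

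Stress response genes were also higher. Of 18 integrated stress response genes, 11 rose and 2 fell with a median of 1.13 (5 rose under spike-in scaling, and 11 if untreated replicate 4 was also left out). Nupr1, a stress-induced chromatin protein, was at 38.1, 39.7, 47 and 32.6 CPM and 359, 431, 266 and 263 CPM (log2 fold change 3.06, SE 0.12, adjusted p = 3.59e-24). Gdf15, a stress-induced cytokine, was at 65.8, 62.3, 54.8 and 53.7 CPM and 318, 358, 152 and 107 CPM (log2 fold change 1.98, SE 0.26, adjusted p = 2.21e-06), and LPS replicates 1 and 2 lay well above replicates 3 and 4. Of 22 chaperone and unfolded protein response genes of the endoplasmic reticulum, 17 rose and 2 fell with a median of 0.75, and 0 rose under spike-in scaling (7 without replicate 4). The folding factors Creld2, Manf and Dnajb11 rose by 1.40 (SE 0.15), 1.26 (SE 0.10) and 1.16 (SE 0.09).

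Inflammasome genes were mixed, with 8 of 17 rising and 4 falling and a median of 0.36 that became -0.27 under spike-in scaling (0.31 without replicate 4), where 2 rose and 4 fell (7 and 2 without replicate 4). Nlrp3, the sensor of the best known inflammasome, was at 19.9, 17.4, 21.7 and 22.8 CPM and 22.7, 18.9, 30.2 and 33 CPM, with overlap (log2 fold change 0.36, SE 0.19, adjusted p = 0.113). Mefv, which encodes pyrin, rose from 3.04 ± 2.57 to 37.3 ± 8.85 CPM, and Ninj1, which ruptures the membrane of dying cells, rose from 205 ± 13.7 to 609 ± 60.4 CPM. Casp4, the caspase that senses LPS in the cytosol, rose from 48.6 ± 13.9 to 123 ± 15.5 CPM.

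Surface receptors for particles changed in both directions. Of 23 scavenger, lectin and Fc receptors tested, 14 rose and 6 fell with a median of 1.15 (9 rose under spike-in scaling, and 12 if untreated replicate 4 was also left out). Marco, a scavenger receptor for bacteria, was at 0.968, 1.74, 1.54 and 1.93 CPM in untreated and 232, 139, 354 and 394 CPM in LPS libraries (log2 fold change 7.47, SE 0.39, adjusted p = 9.68e-13), and LPS replicate 2 was again the lowest of its group. Clec4e, which encodes Mincle, was at 33.1, 39.2, 29.8 and 35.4 CPM and 1008, 835, 1014 and 1236 CPM (log2 fold change 4.90, SE 0.12, adjusted p = 1.36e-27). Clec10a, a galactose lectin of alternatively activated macrophages, went the other way, from 106, 82.7, 77.9 and 106 CPM to 1.17, 1.01, 2.91 and 1.31 CPM (log2 fold change -5.82, SE 0.22, adjusted p = 7.38e-25). The mannose receptor Mrc1 and dectin-1, Clec7a, fell from 273 ± 52.8 to 43.9 ± 6.43 CPM and from 248 ± 52.3 to 27.6 ± 6.97 CPM. Of 16 genes for uptake of apoptotic cells and complement C1q, 10 fell and 1 rose: the bridging proteins Gas6 and Pros1 and the lipid receptor Trem2 fell by 2.30, 1.71 and 2.10 on the log2 scale, and the receptor Mertk rose by 0.52 (SE 0.18) (under spike-in scaling 14 fell and 0 rose, or 7 and 0 if untreated replicate 4 was also left out).

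Of 24 lysosomal genes and their regulators, 10 rose and 9 fell with a median of 0.00, and 1 rose and 10 fell under spike-in scaling (4 and 6 without replicate 4). Ctsl, cathepsin L, rose from 832 ± 76.7 to 2103 ± 193 CPM, and Hexa, a subunit of hexosaminidase, fell from 1209 ± 74.1 to 418 ± 16.6 CPM. Psap, the precursor of the saposins, was at 841, 586, 504 and 236 CPM and 2449.9, 2931, 1999 and 788 CPM, so replicate 4 was the lowest in each group and the groups overlapped, although the test was passed (log2 fold change 1.91, SE 0.37, adjusted p = 2.23e-04). Of 17 genes of matrix proteolysis, 11 rose and 4 fell with a median of 1.47, and 8 rose under spike-in scaling (10 without replicate 4). Mmp14, a membrane-bound metalloproteinase, was at 6.19, 4.11, 5.45 and 18.4 CPM and 530.3, 500.0, 714 and 944 CPM (log2 fold change 6.32, SE 0.39, adjusted p = 2.88e-11), and untreated replicate 4 was the highest untreated library by a wide margin. Without it the log2 fold change of Mmp14 was 7.01. Serpinb2, an inhibitor of plasminogen activators, rose from 0.184 ± 0.264 to 15.2 ± 8.07 CPM.

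Genes of cell division were lower in LPS cells. Of 30 genes of mitosis and cytokinesis, 29 fell and none rose, with a median log2 fold change of -4.47. The exception, Tpx2, was at 42.4 ± 3.11 CPM in untreated and 36.4 ± 17.3 CPM in LPS cells (adjusted p = 0.291). Ccna2 was at 32.5, 44.7, 49.9 and 42.2 CPM in untreated and 0, 0, 0.448 and 0.437 CPM in LPS libraries (log2 fold change -7.36, SE 0.35, adjusted p = 1.08e-21). Mki67, the proliferation marker Ki-67, was at 60.2, 57.2, 83.7 and 68.4 CPM and 14.3, 16.4, 9.85 and 8.52 CPM (log2 fold change -2.47, SE 0.15, adjusted p = 3.82e-18). The cytokinesis gene Anln had 364 against 2 reads (ratio 129, 35.5 to 1071). For these genes each LPS library lay below each untreated one. Of 30 DNA replication genes, 26 fell and 3 rose, with a median of -2.07. Rrm2, a ribonucleotide reductase subunit, was at 32.5, 48.7, 41.1 and 47.4 CPM and 1.17, 1.01, 1.57 and 0 CPM (log2 fold change -5.48, SE 0.29, adjusted p = 7.05e-20), and the thymidine kinase Tk1 and the dUTPase Dut fell from 43.7 ± 14 to 2.52 ± 0.763 CPM and from 12.3 ± 1.51 to 0.878 ± 0.274 CPM. The 3 risen genes included Pcna and E2f1, and 0 rose under spike-in scaling (0 without replicate 4).

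Genes that set entry into the cycle had no common direction: of 17 cyclin D, inhibitor and Myc family genes, 6 rose and 7 fell (6 and 5 without untreated replicate 4, and 3 and 8 under spike-in scaling, or 5 and 5 with both). The inhibitor Cdkn1a (p21) rose from 187 ± 24.6 to 968 ± 136 CPM and the Myc antagonist Mxd1 from 30.2 ± 11.5 to 374 ± 126 CPM. Ccnd2, cyclin D2, rose from 10.5 ± 2.44 to 63.4 ± 11 CPM, while Ccnd1, cyclin D1, fell from 119 ± 20.8 to 69.9 ± 23.4 CPM. Cdkn1c, encoding the inhibitor p57, fell from 55.2 ± 8.38 to 7.19 ± 4.19 CPM.

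**Figure D3:**
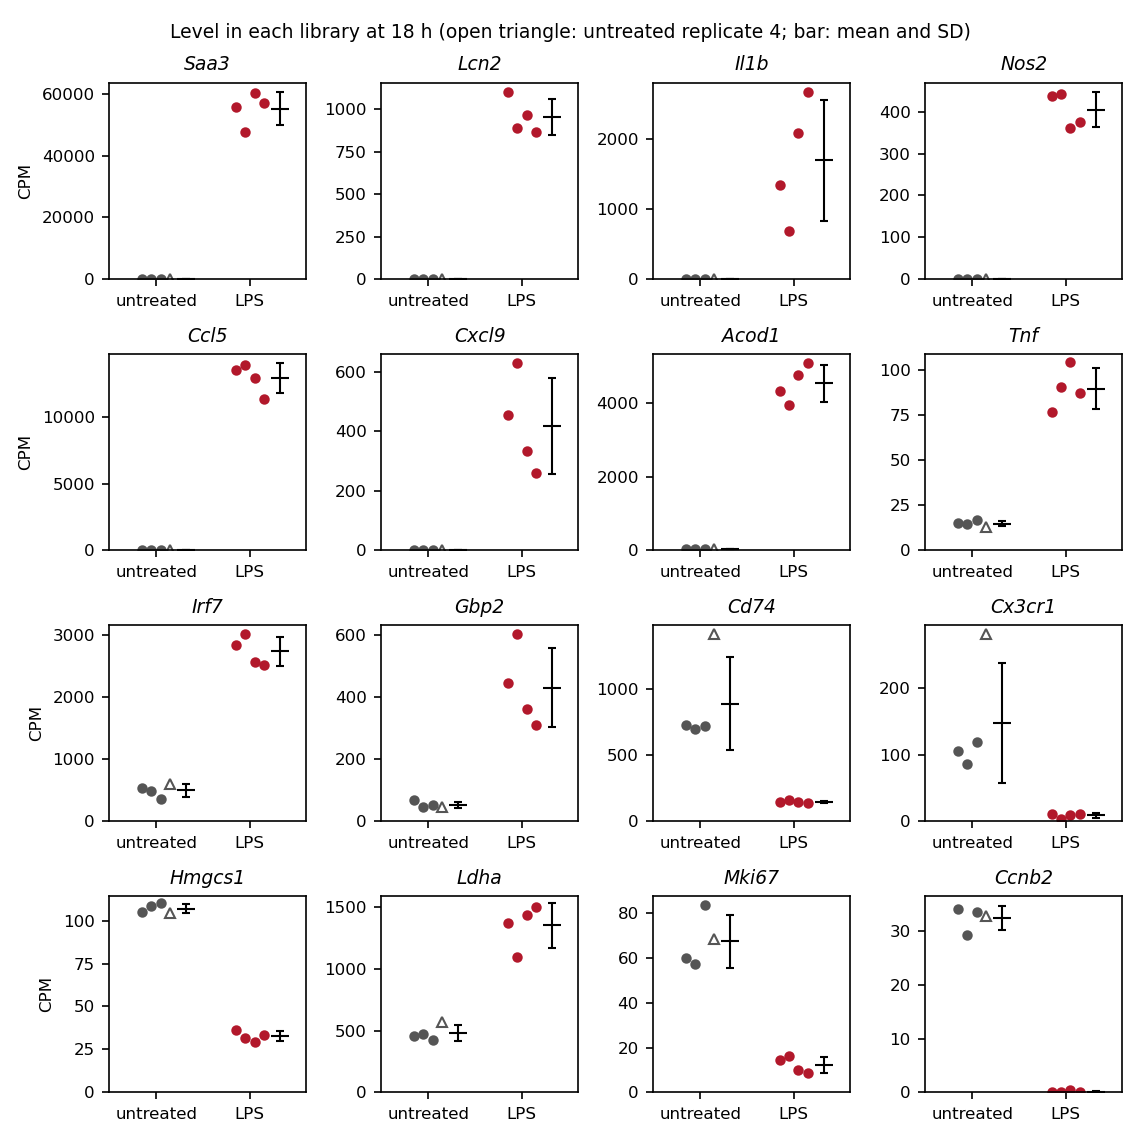
CPM in each of the 4 untreated and 4 LPS libraries at 18 h for 16 genes, with the group mean and SD. The LPS and untreated points are apart for each gene shown, and the open triangle of untreated replicate 4 stands above its group for Cd74 and Cx3cr1.

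Markers of other cell types were mostly unread or low, and some of those read changed. Cd3e, Cd3d and Cd3g of T cells, Cd79a and Pax5 of B cells, Ncr1, Gzma, Prf1 and Klrd1 of natural killer cells and Mpo, Cxcr2 and Retnlg of neutrophils had no read in the 8 libraries. The 1 natural killer marker tested, Klrk1, rose from 0.179 ± 0.264 to 3.18 ± 1.35 CPM, and the list of 6 summed to 0 to 0.559 CPM in untreated and 2.46 to 5.03 CPM in LPS libraries. The 1 neutrophil marker tested, Mmp8, rose from 12.8 ± 2.4 to 34.7 ± 6.2 CPM, and the list of 10 summed to 10.2 to 16.1 CPM and 26.4 to 42.6 CPM. Beside its zeros, the summed level of the 8 B and plasma cell markers was 96.4 to 175 CPM in untreated and 0 to 2.34 CPM in LPS libraries. Nearly all of it was Ighm, which was at 123, 95.6, 136 and 173 CPM and 0.937, 0.503, 0.895 and 0 CPM (log2 fold change -7.77, SE 0.29, adjusted p = 2.74e-23). The 8 T cell markers summed to 134 to 192 CPM and 7.21 to 17.3 CPM, most of it from the costimulatory receptor Cd28, which fell from 165 ± 25 to 11.3 ± 3.64 CPM. Megakaryocyte markers summed to 39.6 to 51.7 CPM and 196 to 263 CPM, where Pf4 and Ppbp, both chemokines, rose from 45.7 ± 5.57 to 225 ± 27.9 CPM and from 0.604 ± 0.759 to 3.9 ± 2.08 CPM. Osteoclast markers summed to 160 to 206 CPM and 51.7 to 76.3 CPM, and of 5 tested Atp6v0d2, Dcstamp and Nfatc1 fell and Acp5 rose, the first from 111 ± 19.8 to 10.8 ± 3.03 CPM. Mast cell and basophil markers summed to 0.875 to 4.06 CPM and 0.218 to 2.52 CPM, and Kit fell from 2.58 ± 1.36 to 0.554 ± 0.812 CPM. No dendritic cell or erythroid marker had enough reads to be tested. Stromal markers summed to 0.140 to 1.75 CPM and 10.3 to 18.1 CPM through Dcn, while Col1a2, Col3a1 and Pdgfra had no read. The part of such cells in the results was not tested.

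The response at 18 h was next set against that at 3 h, which rests on other libraries. The difference between the log2 fold changes at the 2 times passed the test for 6000 genes (51.2%), 2943 (25.1%) with a higher and 3057 (26.1%) with a lower value at 18 h. Under spike-in scaling 4857 genes were called for this difference, or 4233 with untreated replicate 4 also left out. That scaling left far fewer genes with a higher value at 18 h, as given at the end. The list counts and single genes of this comparison are given for TMM scaling with all libraries only. At 3 h LPS against untreated gave 6500 genes (55.5%), with 2964 higher genes (25.3%) and 3536 lower genes (30.2%). Of the 3200 genes higher at 18 h, 1498 (46.8%) were also higher at 3 h, 634 (19.8%) were lower there and 1068 (33.4%) were not called. Of the 3317 lower at 18 h, 1395 (42.1%) were also lower at 3 h, 533 (16.1%) were higher and 1389 (41.9%) were not called.

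Interferon-related lists were lower at 18 h relative to 3 h. Of the 47 interferon-stimulated genes, 40 had a lower log2 fold change at 18 h and 0 a higher one, with list medians of 3.20 at 3 h and 1.09 at 18 h. The GTPases gave 13 lower and 0 higher of 15, with medians of 4.80 and 1.90. Irf7 was at 142 ± 13.2 CPM in untreated and 1503 ± 62.4 CPM in LPS cells at 3 h, and 498 ± 102 CPM and 2739 ± 237 CPM at 18 h, a difference between the log2 fold changes of -0.95 (SE 0.15, adjusted p = 4.31e-06). Its level was thus highest in LPS cells at 18 h, while untreated cells at 18 h also held more than at 3 h. Cxcl10 was at 277 ± 24.2 CPM in untreated and 16303 ± 1981 CPM in LPS cells at 3 h, and 63 ± 26.7 CPM and 1044 ± 64.2 CPM at 18 h, a difference between the log2 fold changes of -1.82 (SE 0.25, adjusted p = 4.60e-06).

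Several cytokines had a smaller response at 18 h: of the 18 tested, 9 had a lower log2 fold change than at 3 h and 0 a higher one, and of the 20 chemokines 9 lower and 4 higher. Il10 was at 5.87 ± 2.34 CPM in untreated and 192 ± 5.19 CPM in LPS cells at 3 h, and 7.75 ± 3.35 CPM and 9.8 ± 0.979 CPM at 18 h, a difference between the log2 fold changes of -4.67 (SE 0.33, adjusted p = 3.79e-14). Il6 was at 0.0563 ± 0.113 CPM in untreated and 319 ± 34.5 CPM in LPS cells at 3 h, and 0 ± 0 CPM and 3.68 ± 2.33 CPM at 18 h, and Il12b at 0.113 ± 0.225 CPM in untreated and 101 ± 14.7 CPM in LPS cells at 3 h, and 0.0699 ± 0.14 CPM and 0.674 ± 0.912 CPM at 18 h. In LPS cells these 3 cytokines were at higher levels at 3 h than at 18 h. For Tnf, levels were 175 ± 17.8 CPM in untreated and 879 ± 73.1 CPM in LPS cells at 3 h, and 14.8 ± 1.53 CPM and 89.5 ± 11.4 CPM at 18 h, with lower levels at 18 h in both groups, and the log2 fold changes differed by 0.27 (adjusted p = 0.116). For Il1b and Ccl5 the difference also did not pass the test (adjusted p = 0.379 and 0.0951). Nor did that of Il6, which was unread in untreated cells at 18 h (adjusted p = 0.920). The lowest differences of all, at 10 CPM or more in a group, were in Edn1, Adamts4, Kalrn, Cd247, Jaml and Gprc5c. Edn1, the vasoconstrictor endothelin 1, was at 0.0589 ± 0.118 CPM in untreated and 590.4 ± 14.7 CPM in LPS cells at 3 h, and 0.36 ± 0.55 CPM and 3.45 ± 0.808 CPM at 18 h. Gprc5c was at 2.55 ± 1.78 CPM in untreated and 18.8 ± 4.71 CPM in LPS cells at 3 h, and 22.4 ± 4.78 CPM and 0 ± 0 CPM at 18 h, and so changed sides between the times.

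Other genes had a higher log2 fold change at 18 h than at 3 h. Marco was at 6.19 ± 1.55 CPM in untreated and 10.1 ± 2.76 CPM in LPS cells at 3 h, and 1.54 ± 0.415 CPM and 280.0 ± 116 CPM at 18 h, a difference between the log2 fold changes of 6.75 (SE 0.66, adjusted p = 3.44e-08). Slamf6, a receptor of the SLAM family, was at 0.851 ± 0.533 CPM in untreated and 0.62 ± 0.808 CPM in LPS cells at 3 h, and 0.553 ± 0.529 CPM and 41 ± 10.6 CPM at 18 h, a difference between the log2 fold changes of 6.5 (SE 1.07, adjusted p = 5.19e-06). Ppp1r12b, a regulatory subunit of myosin phosphatase, gave a difference between the log2 fold changes of 6.33 (SE 0.47, adjusted p = 1.93e-14). Arg1 was at 0.119 ± 0.138 CPM in untreated and 0 ± 0 CPM in LPS cells at 3 h, and 0 ± 0 CPM and 36.6 ± 10.7 CPM at 18 h, and Cnr2, the cannabinoid receptor 2, at 11.6 ± 0.562 CPM in untreated and 0 ± 0 CPM in LPS cells at 3 h, and 21.8 ± 4.18 CPM and 9.54 ± 2.35 CPM at 18 h, so that Cnr2 was unread in LPS cells at 3 h and lower than in untreated cells at both times. Dnmt3l, a cofactor of DNA methyltransferases, was at 3.03 ± 1.29 CPM in untreated and 2.43 ± 2.1 CPM in LPS cells at 3 h, and 0.131 ± 0.263 CPM and 10.6 ± 3.0 CPM at 18 h. Acod1 was at 267 ± 9.79 CPM in untreated and 9722 ± 344 CPM in LPS cells at 3 h, and 26 ± 7.5 CPM and 4531 ± 491 CPM at 18 h, a difference between the log2 fold changes of 2.26 (SE 0.17, adjusted p = 1.57e-12): LPS cells held less of it at 18 h than at 3 h, but so did untreated cells. Of the 26 glycolysis genes, 19 had a higher log2 fold change at 18 h and 4 a lower one, and of the 24 NRF2 genes 18 higher and 2 lower.

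Most division and MHC class II genes had a lower log2 fold change at 18 h than at 3 h. Of the 30 mitosis genes, 28 had a lower log2 fold change at 18 h and 0 a higher one, with medians of -0.89 at 3 h and -4.47 at 18 h. Mki67 was at 128 ± 11.5 CPM in untreated and 141 ± 6.52 CPM in LPS cells at 3 h, and 67.4 ± 11.9 CPM and 12.3 ± 3.69 CPM at 18 h, a difference between the log2 fold changes of -2.61 (SE 0.19, adjusted p = 3.31e-15). Of the 7 MHC class II genes, 6 had a lower value at 18 h. At 3 h 2 of these 7 were higher with LPS and none lower. Sterol synthesis gave 17 lower and 2 higher of 30. The receptors Tlr4 and Cd14 and the sensor Nlrp3 each had a lower log2 fold change at 18 h, by 0.43, 0.87 and 1.20.

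**Figure D4:**
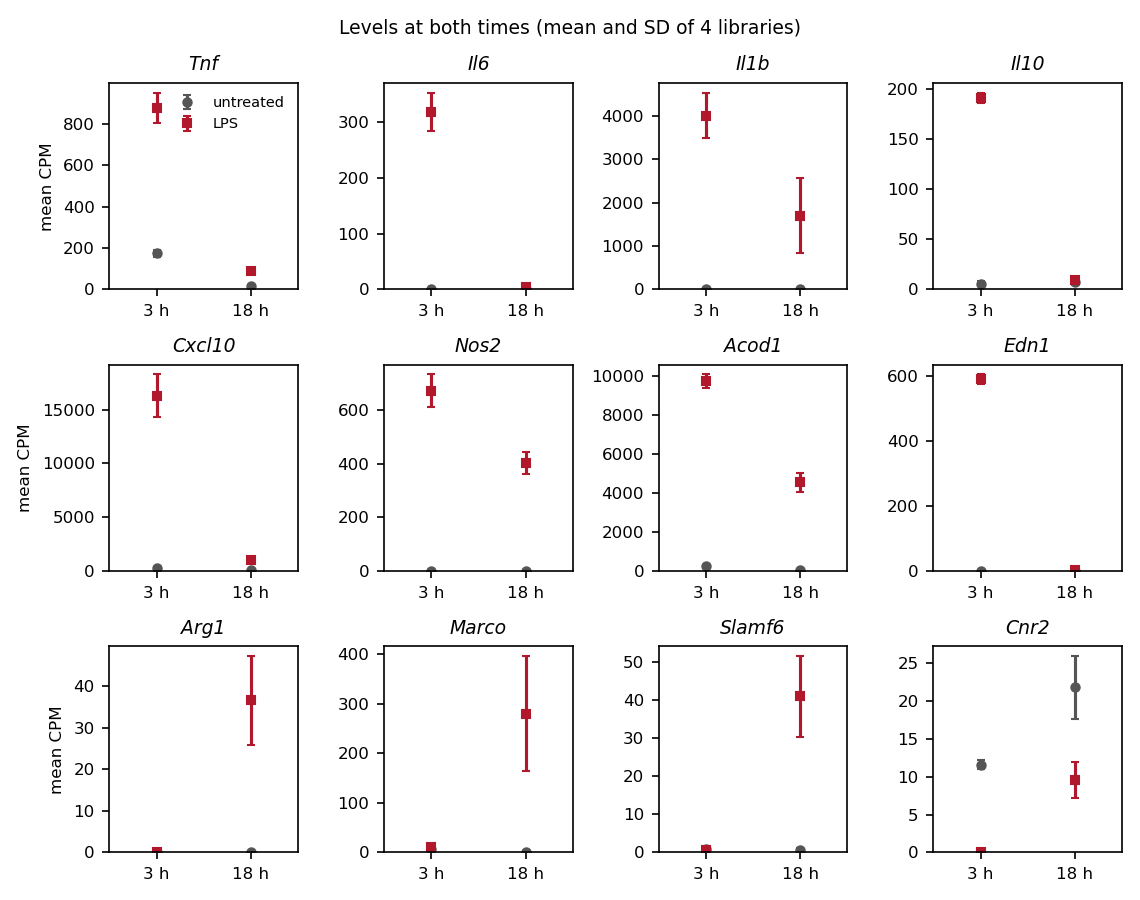
Mean CPM with SD (4 libraries) of untreated and LPS cells at 3 h and 18 h for 12 genes. Il6, Il10 and Edn1 are high in LPS cells at 3 h and low at 18 h, while Arg1, Marco and Slamf6 are high in LPS cells at 18 h.

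Last, LPS cells were set directly against S14 cells at 18 h, which uses the untreated libraries only for the pooled spread and the scaling, although the doses are of different agents and not matched. The test gave 4996 genes (42.6%), 2500 higher (21.3%) and 2496 lower (21.3%) with LPS, and 1915 in all under spike-in scaling (1396 higher and 519 lower). With untreated replicate 4 also left out, that scaling gave 3679 genes, 2812 higher and 867 lower. Nos2 was at 0.368 ± 0.426 CPM in untreated, 3.09 ± 1.82 CPM in S14 and 405 ± 41.7 CPM in LPS cells (log2 difference 7.05, SE 0.21, adjusted p = 1.13e-20). Ccl5 was at 37.7 ± 7.68 CPM in untreated, 1455 ± 91.2 CPM in S14 and 12946 ± 1111 CPM in LPS cells (log2 difference 3.15, SE 0.09, adjusted p = 8.66e-28), and Acod1 at 26 ± 7.5 CPM in untreated, 293 ± 47.6 CPM in S14 and 4531 ± 491 CPM in LPS cells (log2 difference 3.95, SE 0.12, adjusted p = 2.40e-21). S14 cells lay between the other groups for these genes. Saa1 and Arg1 had the largest rises over S14 that the rule names, with 0 and 0.0498 CPM in S14 cells. Next came the uridine phosphorylase Upp1 and Timp1. Upp1 was at 0.956 ± 0.867 CPM in untreated, 0.0554 ± 0.111 CPM in S14 and 14.8 ± 1.67 CPM in LPS cells. Timp1 was at 0.0968 ± 0.194 CPM in untreated, 1.5 ± 0.841 CPM in S14 and 225 ± 28.3 CPM in LPS cells.

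Genes lower with LPS than with S14 were led by Hpgd, Rasgrp3, Ighm, Pclaf and Clec10a. Hpgd was at 67.5 ± 15.1 CPM in untreated, 13.5 ± 3.75 CPM in S14 and 0.113 ± 0.131 CPM in LPS cells (log2 difference -6.56, SE 0.53, adjusted p = 5.35e-13). Rasgrp3, an activator of Ras proteins, was at 90.6 ± 11.6 CPM in untreated, 44.1 ± 2.71 CPM in S14 and 0.736 ± 1.0 CPM in LPS cells (log2 difference -5.82, SE 0.31, adjusted p = 4.65e-18). Pclaf, a partner of PCNA in replication, was at 80.9 ± 6.99 CPM in untreated, 25.6 ± 6.01 CPM in S14 and 0.918 ± 0.688 CPM in LPS cells, and Clec10a at 93 ± 14.9 CPM in untreated, 38.7 ± 6.15 CPM in S14 and 1.6 ± 0.882 CPM in LPS cells. S14 cells again lay between the untreated and LPS cells. Mki67 was at 67.4 ± 11.9 CPM in untreated, 16.3 ± 1.55 CPM in S14 and 12.3 ± 3.69 CPM in LPS cells (log2 difference -0.43, SE 0.17, adjusted p = 0.0403). By lists, 44 of 47 interferon-stimulated genes, 22 of 26 glycolysis genes and 16 of 20 chemokines were higher with LPS than with S14. Lower were 28 of 30 mitosis genes, 26 of 30 sterol genes and all 7 MHC class II genes. These list counts are given for TMM scaling only, and far fewer genes were called lower under spike-in scaling, as given above. Il10, Il12b and Cd14 did not pass this test (adjusted p = 0.689, 0.451 and 0.124). Nlrp3, which was not called against untreated cells, was higher with LPS than with S14 (log2 difference 0.92, SE 0.21, adjusted p = 7.18e-04).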

How the data were processed

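The authors deposited whole read counts per gene without normalization for 24 libraries (55401 genes, plus 7 ribosomal RNA entries that were set aside), per the file headers and values. The second deposited table holds a signal, in which each library's gene reads were divided by one size factor. Undoing that division recovered whole reads for 100% of its values (within 0.001). It also holds 114 spike-in RNAs, 62 of them with a read, and the reads of 7689 genes differ between the tables. Per the submitters' processing notes, cutadapt 1.18, FastQC, STAR 2.6.1a, featureCounts 1.6.4, Subread and DESeq2 were used with GRCm38. No source used here gives their order, the annotation release, the strand setting or how reads with several matches were treated, so genes with near-identical or overlapping copies are uncertain.

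Genes were kept with filterByExpr (minimum count 10, minimum total 15), scaled by TMM and fitted in edgeR 4.0.16 (R 4.3.3) with a robust quasi-likelihood model with a mean for each of the 6 groups, so that the 24 libraries share their spread (18 residual degrees of freedom). Benjamini-Hochberg adjustment ran over 11717 genes, and calls were made at adjusted p under 0.05. "Rose" and "fell" mean called. Levels are counts scaled to a common library size (CPM), as single values or mean ± SD (n = 4), and fold changes are log2 with the standard error (SE). Reads of 3' ends are not divided by length, and levels of different genes are not compared. A gene with no read in a group has a lower bound against a floor of 3 reads over the group, and with 1 to 3 reads the ratio has an exact 95% interval. Both cover counting error only, since PCR copies of a molecule may count as separate reads. Symbols used by more than 1 gene stand for the gene with the most reads.

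Genes named with values were chosen by a rule: the 10 highest and 10 lowest called changes at 10 CPM or more whose groups do not overlap, the 3 members of each of 32 lists with the largest change at that level, and 18 index genes. For the difference between times 6 each way were taken, and for LPS against S14 5 each way. A few genes are not reported here. Other members of the lists were chosen after their values were seen. Members, lists and the rule were chosen with earlier results of these data known, from textbook knowledge. Gene positions are from GENCODE M21 on GRCm38 and promoters from RefSeq (GRCm38.p6). The script was tested on simulated data. Alternatives were DESeq2 1.42.0, another normalization, 2 filters, a fit of the compared groups alone, the second table's reads, spike-in scaling, a replicate block and leaving out each library. The replicate numbers were not treated as pairs, and the labels do not say whether equal numbers share an animal or a batch. Deviations of LPS and untreated libraries with the same number correlated at 0.0446, 0.0220, 0.0406 and 0.143 across genes. Those with different numbers correlated at -0.110 to 0.0437. A pairing was not tested further.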

Additional observations from a re-analysis of the deposited data

Results flagged for a closer look

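The log2 fold change of LPS over untreated cells differed between 18 h and 3 h for 6000 genes by edgeR's test of that difference. Among the named genes with more than 3 reads in each of the 4 groups, it was larger at 18 h for Marco by 6.75, for Slamf6 by 6.5, for Ppp1r12b by 6.33 and for Acod1 by 2.26. It was smaller at 18 h for the others that passed that test, with differences of -4.67 for Il10, -2.61 for Mki67, -1.82 for Cxcl10, -1.20 for Nlrp3, -0.95 for Irf7, -0.87 for Cd14 and -0.43 for Tlr4.

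Of 240 groups of 4 libraries examined, 16 held a library far from the other 3 by Dixon's test at its 95% critical value. Chance flags about 1 in 20 groups where values spread continuously, but a group with reads in a single library is always flagged. Of the 16 flagged, 6 were in untreated replicate 4. It was the highest of its group for Cd74 (1423 CPM), Cd14 (1027 CPM), Cx3cr1 (281 CPM) and Mmp14 (18.4 CPM), and the lowest for Ska1 (6.13 CPM) and H2-Q6 (0.175 CPM). Untreated replicate 1 stood apart for Tarm1 (0.581 CPM), Timp1 (0.387 CPM) and Cd38 (0.387 CPM), and untreated replicate 3 for Il12b (0.280 CPM), each as the one library with a read. LPS replicate 2 was the lowest of its group for Cx3cr1 (3.27 CPM) and the one with a read for Ska1 (0.252 CPM). LPS replicate 3 was the highest for Clec10a (2.91 CPM) and the one with a read for Pimreg (0.448 CPM), Ccnb2 (0.448 CPM) and Ankle1 (0.224 CPM).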

How the results depend on the processing

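DESeq2, another normalization (RLE), the other filters on low counts, a fit of the compared groups alone and the reads of the second table kept the counts of called genes within 1.5 times in the 3 comparisons. Scaling to the spike-in RNAs moved them further: 695 genes were called higher against untreated cells, 381 had a higher response at 18 h than at 3 h, and against S14 1915 were called, 1396 higher and 519 lower. With untreated replicate 4 also left out, 3985 genes were called against untreated cells, 1431 of them higher, 850 had a higher response at 18 h, and against S14 3679 were called, 2812 higher and 867 lower. No source used here gives the amount of spike-in added, and the cause was not tested. Leaving out 1 library at a time gave 6018 to 6447 calls against untreated cells (2995 to 3186 higher, 3023 to 3261 lower), 5744 to 6121 for the difference between times (2809 to 3021 and 2928 to 3100), and 4527 to 4836 against S14 (2261 to 2420 and 2266 to 2416). The spike-in share differed by 0.000847 to 0.00808 percentage points without 1 library, except for -0.00252 without untreated replicate 4. With the replicate number as a block, 6567 genes were called against untreated cells (3240 higher, 3327 lower). The block gave 6035 for the difference between times and 5057 against S14. The main fit did not treat the numbers as pairs. Of the 115 named genes, 11 lost their call under spike-in scaling and 2 when untreated replicate 4 was also left out. Il12b, at 13 reads in all, lost it under RLE (adjusted p = 0.0513), the block (0.0692), spike-in scaling and when LPS replicate 2 or 3 or untreated replicate 1, 2 or 4 was left out. Nlrp3 gained one with no filter (adjusted p = 0.0185), the block (0.0307) and without LPS replicate 2 (0.0373), and its log2 fold change was -0.27 under spike-in scaling, where that of Il10 was -0.43 (0.31 and 0.36 with untreated replicate 4 also left out). That of Cd14 was 0.056 under spike-in scaling without untreated replicate 4, and -0.23 to 0.14 without 1 library at a time, above 0 without LPS replicate 1 or 2 or untreated replicate 4. Of the 32 lists, the counts of 16 were the same without untreated replicate 4, those of 13 moved by 1 and those of 3 by 2 or 3. Genes at a few reads in both groups, such as Il12b, are limited by depth.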
